A study of Mus musculus with 4 samples.

Results

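The data are 1412 H3K4me3 peaks at protein-coding promoters of the mouse hippocampus that were called in a tissue pool named pool C and not in a tissue pool named pool D. They were chosen by peak presence: they are the peaks of the pool C list that have no base in common with the pool D list and lie within 1 kb of a transcription start site of a protein-coding transcript. The pool C list holds 34193 peaks, of which 16265 reach such a promoter, so that the 1412 peaks make up 8.68% of its promoter peaks. Away from promoters 58.3% of pool C peaks had no pool D peak, and over the whole list 34.7%. Everything below about presence in pool C and absence from pool D is therefore a description with no test.

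The chromatin came from frozen hippocampus, labelled as layer of hippocampus with no layer named, of adult male B6CASTF1/J mice aged 2 months, a hybrid of a laboratory and a wild-derived strain. Each pool combined 7 tissue samples and gave 2 technical replicate libraries from fragments in the size range 200 to 600, with pool D labelled as biological replicate 1 and pool C as biological replicate 2. The labels name no treatment or genotype that separates the pools. Technical replicates of a pool share a single deposited peak list, so every value below comes from 1 list per pool, with no error between replicates.

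Histone H3 trimethylated at lysine 4 is placed around the start sites of genes that are transcribed or poised for transcription. It is written by the SET1 and MLL enzymes, which are drawn to unmethylated CpG-rich DNA by CXXC domain proteins, so that CpG-rich promoters carry it in most cell types. CpG-poor promoters tend to carry it in the cells that transcribe the gene. The hippocampus is made up mainly of neurons, astrocytes and oligodendrocytes, with microglia, blood vessel cells and inhibitory interneurons as smaller populations, and a promoter marked in a small population gives a weak signal in whole tissue. In bulk tissue, fewer cells of a type and less of the mark per cell cannot be told apart.

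The labelled tissue was checked against gene lists. Of 29 genes of hippocampal fields, 26 had a promoter peak in pool D and 27 in pool C. Every one of 30 pan-neuronal genes, 31 excitatory neuron genes and 28 housekeeping genes had a promoter peak in each pool, and of 32 astrocyte genes 30 had one in pool D and 32 in pool C. The pool D list was shorter (24690 peaks), and of its 15490 promoter peaks 15 had no pool C counterpart. Sequencing depth is unknown from the files, and the part that unequal depth between the pools had in the values below was not tested.

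The CpG counts within 500 bp of the start sites of these peaks spread over a wide range, from 2 to 161, with a median of 23. The following sequences are CpG-poor and CpG-rich examples, taken from chosen gene groups and from the strongest peaks. They do not show how the counts were distributed. Each is the 200 bases before the annotated start site nearest to the peak summit, written 5′ to 3′ on the gene's strand in build GRCm38 (the same assembly as mm10), with every CpG in capitals. They are from the reference strain C57BL/6J and not from the hybrid animals. From each gene group the strongest peaks were taken whose 200 bases hold no annotated exon. The CpG-poor examples are microglial genes C1qc (chr4:136893066-136893265, minus strand), which encodes a chain of complement component C1q, P2ry13 (chr3:59210883-59211082, minus strand), a purinergic receptor, and Fcgr1 (chr3:96293970-96294169, minus strand), an immunoglobulin receptor. With them are endothelial genes Myct1 (chr10:5593575-5593774, plus strand) and Apold1 (chr6:134981518-134981717, plus strand), and leukocyte genes Hcls1 (chr16:36934783-36934982, plus strand) and Dock2 (chr11:34783893-34784092, minus strand), an activator of the GTPase Rac.
C1qc: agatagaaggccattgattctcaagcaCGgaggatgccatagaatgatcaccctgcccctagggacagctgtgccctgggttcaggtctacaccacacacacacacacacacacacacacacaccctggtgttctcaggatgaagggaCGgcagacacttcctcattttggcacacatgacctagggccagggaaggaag
P2ry13: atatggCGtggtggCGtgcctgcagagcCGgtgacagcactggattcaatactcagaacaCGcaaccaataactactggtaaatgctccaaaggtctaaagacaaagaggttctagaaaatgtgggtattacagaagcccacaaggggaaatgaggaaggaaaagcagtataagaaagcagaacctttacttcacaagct
Fcgr1: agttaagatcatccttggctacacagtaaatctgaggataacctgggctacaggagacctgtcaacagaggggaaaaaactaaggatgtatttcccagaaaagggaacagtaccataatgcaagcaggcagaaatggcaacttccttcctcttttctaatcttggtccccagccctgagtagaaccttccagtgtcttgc
Myct1: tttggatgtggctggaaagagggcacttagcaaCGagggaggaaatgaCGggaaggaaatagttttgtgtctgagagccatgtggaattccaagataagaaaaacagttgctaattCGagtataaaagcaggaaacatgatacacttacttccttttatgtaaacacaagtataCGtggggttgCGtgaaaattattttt
Apold1: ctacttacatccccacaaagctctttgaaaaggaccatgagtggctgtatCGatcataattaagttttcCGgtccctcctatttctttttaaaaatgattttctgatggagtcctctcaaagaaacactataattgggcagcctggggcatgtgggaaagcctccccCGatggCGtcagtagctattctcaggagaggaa
Hcls1: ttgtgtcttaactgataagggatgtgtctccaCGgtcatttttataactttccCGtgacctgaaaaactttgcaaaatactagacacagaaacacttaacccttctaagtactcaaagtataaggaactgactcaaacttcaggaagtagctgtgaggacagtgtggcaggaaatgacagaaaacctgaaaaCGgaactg
Dock2: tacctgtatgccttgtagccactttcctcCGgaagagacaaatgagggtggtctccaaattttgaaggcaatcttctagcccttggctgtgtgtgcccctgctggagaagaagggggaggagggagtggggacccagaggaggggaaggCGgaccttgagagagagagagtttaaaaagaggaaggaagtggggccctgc
These 7 stretches hold between 0 (Fcgr1) and 5 (Myct1) CpG dinucleotides in 200 bases. Apold1 is CpG-poor in the printed bases alone. Within 500 bp its start site held 25 CpG dinucleotides, above the median of 23 of all 1412.

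The CpG-rich examples are Npas1 (chr7:16476781-16476980, minus strand) and Sp9 (chr2:73271725-73271924, plus strand), transcription factors of inhibitory interneurons, and Isl2 (chr9:55540948-55541147, plus strand) and Foxa1 (chr12:57546122-57546321, minus strand), transcription factors of motor neurons and of endoderm. Tfap2e (chr4:126736241-126736440, minus strand), a transcription factor of the AP-2 family, and Dgkk (chrX:6779106-6779305, plus strand), a diacylglycerol kinase, stand for the strongest peaks of all at genes without a pool D promoter peak. The Dgkk summit lay at −841 bp from the start site, and the peak (chrX:6778299-6778663) did not reach the printed bases. Those bases are a short unit repeated in tandem, which holds their CpG dinucleotides.
Npas1: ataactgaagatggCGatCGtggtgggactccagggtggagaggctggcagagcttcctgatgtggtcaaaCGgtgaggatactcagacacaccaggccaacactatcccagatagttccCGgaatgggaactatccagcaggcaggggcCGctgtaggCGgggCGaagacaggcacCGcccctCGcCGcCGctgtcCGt
Sp9: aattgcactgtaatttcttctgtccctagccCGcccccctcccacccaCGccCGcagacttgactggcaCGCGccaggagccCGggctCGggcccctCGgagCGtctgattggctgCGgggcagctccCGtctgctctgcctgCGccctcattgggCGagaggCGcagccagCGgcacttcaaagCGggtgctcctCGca
Isl2: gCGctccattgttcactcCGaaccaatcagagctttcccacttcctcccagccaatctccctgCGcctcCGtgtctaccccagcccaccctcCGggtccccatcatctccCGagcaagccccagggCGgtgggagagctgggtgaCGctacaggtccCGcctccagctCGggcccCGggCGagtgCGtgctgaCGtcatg
Foxa1: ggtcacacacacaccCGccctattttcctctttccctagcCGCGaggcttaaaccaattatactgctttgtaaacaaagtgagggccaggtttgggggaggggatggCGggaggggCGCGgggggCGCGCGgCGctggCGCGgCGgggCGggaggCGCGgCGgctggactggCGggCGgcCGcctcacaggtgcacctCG
Tfap2e: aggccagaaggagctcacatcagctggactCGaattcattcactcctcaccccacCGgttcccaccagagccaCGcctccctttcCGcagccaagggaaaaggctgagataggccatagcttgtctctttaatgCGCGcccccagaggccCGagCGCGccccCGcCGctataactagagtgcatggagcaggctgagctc
Dgkk: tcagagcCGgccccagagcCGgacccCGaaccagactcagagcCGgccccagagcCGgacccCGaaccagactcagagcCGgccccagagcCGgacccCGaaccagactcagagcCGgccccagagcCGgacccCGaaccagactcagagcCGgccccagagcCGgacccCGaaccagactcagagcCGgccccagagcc
These 6 stretches hold between 11 (Tfap2e) and 21 (Foxa1) CpG dinucleotides, more than any of the 7 above.

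The 1412 peaks were narrow and weak within the pool C list. Their median width was 437 bp, with a range from 180 to 2205 bp, against a median of 2058 bp for the 14853 pool C promoter peaks that met a pool D peak. The signal value, the enrichment that the authors' peak caller gave each peak and which is used here within the pool C list alone, had a median of 3.88 and ranged from 1.92 to 10.8, against a median of 26.4 for the shared promoter peaks. The median −log10 q was 5.75, 825 peaks (58.4%) had a −log10 q of at least 5, and 14 had a q above 0.05. No peak lay above the sixth of 10 equal classes of signal value: from the weakest class upward they numbered 296, 346, 331, 314, 117 and 8. Promoter peaks of the weakest class lacked a pool D peak in 94.0% of cases and those of the fifth class in 13.7%, against 95.2% and 19.9% of non-promoter peaks in the same classes. In each of the 6 classes the share was somewhat lower at promoters, with the widest gap in the third class (77.2% against 83.6%). These gaps are smaller than the one over the whole list (8.68% against 58.3%), where promoter peaks were mostly of high signal.

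Most of these peaks recurred when the libraries of both pools were pooled for calling. The list called on both pools held 916 of them (64.9%, against 57.9% of all pool C peaks that pool D lacked), the replicated list held 482 (34.1% against 28.8%), and 474 were in neither. Those lists draw on the same libraries and are not independent of the pool C list. In the replicated list the share rose with signal, from 17.2% of the peaks in the weakest class to 68.4% in the fifth and all 8 in the sixth.

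The peaks fell into those at genes with no promoter peak in the pool D list and those at genes with one at some start site. Absence from that list means that no peak was called, and does not show that the mark was absent. Below, marked and unmarked refer to called peaks. A pool D promoter peak was present at 13911 of 21853 protein-coding genes (63.7%). A total of 585 peaks reached only genes without a pool D promoter peak, and 827 reached at least one gene with one. Counted by gene, 1277 protein-coding genes (5.84%) were reached, of which 552 had no pool D promoter peak. These 552 are 2.53% of all protein-coding genes and 6.95% of the 7942 genes without a pool D promoter peak. A further 20 genes had a promoter peak in pool C alone, through peaks that met a pool D peak outside the promoter window. Conversely, 4 genes had a promoter peak in pool D and none in pool C.

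The nearest pool D peak was at a median of 26613 bp from the 585 peaks and of 648 bp from the 827. This contrast is in part fixed by the split, which uses pool D peaks at the genes reached. Among the 585 peaks, 8 lay within 1 kb of a pool D peak and 174 over 50 kb from one. Among the 827, 462 (55.9%) lay within 1 kb, 144 between 1 and 5 kb, and 221 farther away. Among pool C peaks away from promoters without a pool D peak, 18.2% lay within 1 kb.

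**Figure D1:**
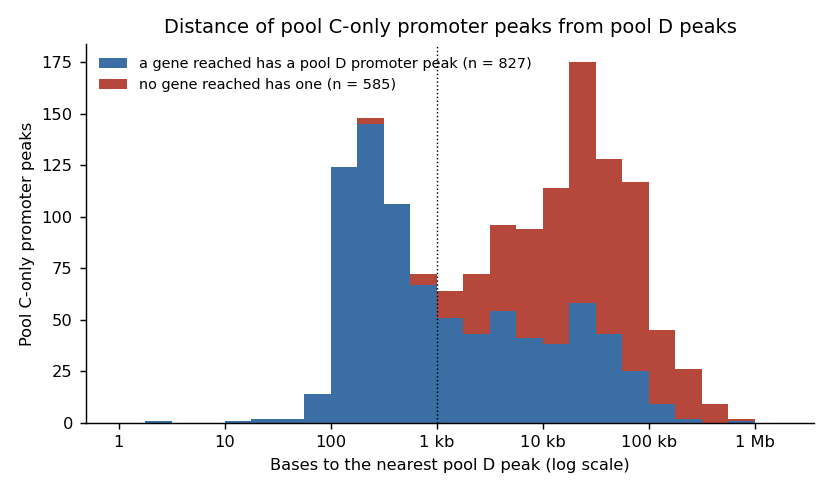
Stacked histogram of the distance in bases (log axis) from each of the 1412 peaks to the nearest pool D peak, coloured by whether a gene it reaches has a pool D promoter peak. The 827 peaks at genes with one pile up at 100 to 1000 bases, left of the dotted line at 1 kb, and the 585 others lie mostly between 5 and 100 kb. The colours are assigned from pool D peaks, so the contrast between them is in part fixed.

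The strongest of the 585 peaks lay at Fyb2, Tfap2e and Srp54c, each with a signal value of 9.56 and a −log10 q of 29.6 in pool C and no pool D peak within 10 kb. The Fyb2 peak was 491 bp wide (chr4:104913316-104913806 in mm10) and its summit lay at −5 bp from the start site of this gene, which encodes a relative of the T cell adaptor Fyb. The Tfap2e peak was 488 bp wide (chr4:126736047-126736534), with its summit 4 bp downstream of the start site whose upstream bases are printed above. The replicated list held both, and the Tfap2e peak there was 846 bp wide. Srp54c and Srp54b (signal value 7.73), which encode the same subunit of the signal recognition particle, are near-identical neighbouring copies on chromosome 12. Reads can be split or misplaced between them, and their peaks are reported as uncertain.

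The next in signal were Dgkk (9.01), the motor neuron factor Isl2 (8.65), the lipid transporter gene Abca14 (8.15), Ifitm3 (7.73), Mcoln2 (7.55) and Ccdc80 (7.36). Ifitm3 encodes an interferon-induced membrane protein that blocks virus entry, Mcoln2 an endolysosomal cation channel, and Ccdc80 a secreted matrix protein. Of these 10 strongest peaks, the replicated list held 8 and lacked those of Abca14 and Srp54b. The Ccdc80 peak lay 1637 bp and the Abca14 peak 1546 bp from a pool D peak, and the other 8 were at least 10527 bp away.

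The 5 widest peaks at genes without a pool D promoter peak were at Gata6 (1848 bp), Depp1 (1771 bp), P2ry12 (1734 bp), Apold1 (1607 bp) and Ly6a (1502 bp). Gata6 encodes a zinc finger factor of heart and endoderm, Depp1 a small protein induced by FOXO factors, and Apold1 and Ly6a proteins of the vascular endothelium. In the replicated list the Gata6 peak was 723 bp and the Apold1 peak 1515 bp wide, and the other 3 were missing.

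Genes of microglia, the resident macrophages of the brain, gave the highest count in pool C alone as a share of the whole list among the cell type lists. Of 43 microglial genes, 12 had a promoter peak in pool D, 16 (37.2%) were reached by a pool C peak and had none in pool D, and 15 had no promoter peak in either pool. Among all protein-coding genes the corresponding share was 2.53%, and among the 31 microglial genes without a pool D promoter peak it was 51.6%, against 6.95% of all such genes. On that second base the lists of astrocytes (2 of 2), endothelium (9 of 11) and oligodendrocytes (3 of 4) stood higher, with far fewer genes left to reach. The signal values of the 16 were low even among the 1412 peaks, with a median of 3.51 and a range from 2.39 to 5.98. Their start sites held a median of 13 CpG dinucleotides within 500 bp (range 9 to 29), and 13 of the 16 were below the median of 23 of all 1412. The summit lay downstream of the nearest start site of the gene in all 16. Among all 585 peaks, 56.2% of summits lay 0 to 500 bp downstream and 21.2% farther downstream.

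The strongest microglial peak was at P2ry12, the purinergic receptor by which resting microglia sense injury. It was 979 bp wide (chr3:59262007-59262985), had a signal value of 5.98 and a −log10 q of 17.9, and lay 80468 bp from the nearest pool D peak. P2ry12 had 3 such peaks at its start sites. The replicated list held the strongest of them with a signal value of 3.94 on that list's own scale.

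Csf1r, the receptor on which microglial survival depends, had a peak of 765 bp with a signal value of 4.75 in an intron 1069 bp downstream of a start site. Cx3cr1, the receptor for the neuronal chemokine fractalkine, had a peak of 390 bp with a signal value of 4.61, which the replicated list lacked. C1qc had a peak of 664 bp (chr4:136892164-136892827) with a signal value of 4.43, in an intron 754 bp downstream of the start site printed above. These 3 were at least 40357 bp from any pool D peak.

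The other 12 microglial genes, which are named here after their values were seen, included the lineage factor Spi1 (PU.1), with a signal value of 3.09, and Aif1, which encodes the marker protein Iba1, with 3.88. Tmem119 had a peak of 286 bp with a signal value of 3.51, and Trem2 and its adaptor Tyrobp each had one of 2.59 with a −log10 q of 1.45. P2ry13, Fcer1g, Siglech, Fcgr1, C1qa, Ctss and Ly86 made up the rest, with signal values between 2.39 (Ly86) and 3.92 (P2ry13). C1qb, the third chain of the C1q complex, had no promoter peak in either pool, nor did Itgam, Gpr34 or Selplg. A further 3 microglial genes, Fcgr3, Olfml3 and Irf8, had a pool C peak beside a pool D promoter peak of the same gene. The microglial count depended on weak peaks: 6 of the 16 genes remained with a −log10 q of at least 5, 8 with presence in the list called on both pools, and 5 with presence in the replicated list.

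Genes shared by leukocytes in general, part of which microglia also express, gave the next highest share of the whole list. Of 56 such genes 22 had a promoter peak in pool D, and 13 (23.2%) were reached by a pool C peak without one in pool D. These were 38.2% of the 34 leukocyte genes without a pool D promoter peak, below the endothelial, oligodendrocyte, interneuron and mural lists on that base. The other 21 of the 34, among them Laptm5, Cd52, Cybb and Btk, had no promoter peak in either pool. Alox5, the enzyme that starts leukotriene synthesis, had a peak of 547 bp with a signal value of 4.24 and 44 CpG dinucleotides, the most among the 13. Fgr, a Src family kinase of myeloid cells, and Vav1, an exchange factor of blood cell signalling, had signal values of 4.06, and Itgb2, the integrin chain common to leukocytes, one of 3.88. The start sites of 9 of the 13 were below the median CpG count of 23. Of the summits, 12 lay downstream, as most of the 585 did. The median signal value was 3.51 and the lowest 2.77, at Hvcn1, a voltage-gated proton channel gene. Ptprc, which encodes the pan-leukocyte antigen CD45, had a peak of 358 bp with a signal value of 3.14. Of the 13 genes, 5 had a −log10 q of at least 5, 7 were in the list called on both pools and 4 in the replicated list.

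Lists of receptors and signals of the immune system in general gave smaller shares. Of 142 cytokine, chemokine and receptor genes 9 (6.34%) were reached with no pool D promoter peak. Among them were Il12b (signal value 5.91), Cx3cr1 (4.61), Il31 (4.24) and Il12rb2 (3.88). Cx3cr1 is also counted in the microglial list above. Of 39 innate receptor genes 3 were, the DNA sensor Aim2 (4.05), the lectin receptor Clec4a2 (3.14) and the inflammasome gene Nlrp3 (2.78). Of 28 antigen presentation genes 1 was, the class II transactivator Ciita (4.06), and of 47 interferon response genes 2 were, Ifitm3 and Ifit1 (5.90). Of 41 lymphoid genes 1 was, Pax5, and of 21 erythroid genes 1, Trim10 (3.69). These shares were 7.69% (innate receptors), 3.57% (antigen presentation), 4.26% (interferon response), 2.44% (lymphoid) and 4.76% (erythroid). The share of all genes was 2.53%. Defining genes of lymphocytes and of red cells mostly had no peak in either pool, with 34 of the 41 and 14 of the 21 lacking any promoter peak. Among all protein-coding genes, 33.7% had no promoter peak in either pool.

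Endothelial genes were nearly all marked once the pool C peaks were counted. Of 55 genes, pool D marked the promoters of 44 and pool C those of 54, and Foxq1 had no promoter peak in either. Of the 11 without a pool D peak, 9 were reached by the peaks described here (16.4% of the list against 2.53% of all genes). Emcn, a sialomucin of venous and capillary endothelium, had a peak of 1126 bp with a signal value of 5.53 (chr3:137341079-137342204). Vwf, the platelet-binding factor of vessel walls, had one of 299 bp with 5.35. Slc38a5, an amino acid transporter, and Tie1, a receptor tyrosine kinase, each had a signal value of 4.79, and Tie1 had 2 such peaks.

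The other 5 endothelial genes, Ly6a, Ly6c1, Mmrn2, Myct1 and Apold1, had signal values between 3.65 and 4.06. Ly6a and Ly6c1 had 4 and 2 CpG dinucleotides within 500 bp, the lowest of the 9. Apold1 was the exception in position: its peak began 234 bp from a pool D peak that did not reach the promoter window, with its summit at −405 bp from the start site. At 7 further endothelial genes the pool C peak was an additional one beside a pool D promoter peak, with the highest signal value at Erg (7.32), an ETS factor of endothelium, and the next at Cldn5 (5.65), the tight junction protein of the blood-brain barrier. Such a peak was in the replicated list at 5 of the 9 genes.

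Genes of mural and meningeal cells gave 7 of 42 (16.7%). Serping1, the C1 inhibitor, had a signal value of 5.98, Tbx2, a T-box factor, 4.75, Rgs5, a G protein regulator of pericytes, 4.40, and Igf2, a growth factor of meninges and choroid plexus, 3.88. Mgp, Ndufa4l2 and Acta2 followed with 3.53, 3.14 and 2.94. Col3a1, Des, Lum and Tagln, defining genes of fibroblasts and muscle cells, had no promoter peak in either pool.

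The lists of other brain cell types gave few genes or none, and pool D had already marked most of their genes. Of 38 oligodendrocyte genes 3 were reached with no pool D promoter peak: Mog, a myelin surface protein, with a signal value of 4.25 and a width of 1066 bp, Opalin with 4.24 and Hapln2 with 3.69. Pool D lacked 4 of the 38, so that these were 3 of the 4 that could be reached. At 7 more oligodendrocyte genes the pool C peak stood beside a pool D one, the widest of them at Mobp (2118 bp). Of 32 astrocyte genes 2 were reached, the 2 that pool D lacked, Agt (4.43), which encodes angiotensinogen, and Itih3 (3.51), and of 22 precursor genes 1, Rlbp1 (4.43). Of 41 ependymal and choroid plexus genes 1 was, Rarres2 (3.70), and of 29 hippocampal field genes 1, Tdo2 (5.53), an enzyme of tryptophan breakdown with 4 CpG dinucleotides at its start site. These shares were 7.89% (oligodendrocytes), 6.25% (astrocytes), 4.55% (precursors), 2.44% (ependyma and choroid plexus) and 3.45% (hippocampal fields). The share of all genes was 2.53%. No gene of excitatory neurons, neurons in general, immediate early genes or housekeeping genes was reached in this way, and none could have been, since all had a pool D promoter peak.

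Interneurons make up a small share of hippocampal neurons and release GABA. Of 48 interneuron genes 35 had a promoter peak in pool D, and 6 (12.5%) were reached in pool C alone, against 2.53% of all genes. The other 7, among them Vip and Htr3a, had no promoter peak in either pool. Slc32a1, the transporter that loads GABA into vesicles, had a peak of 1359 bp with a signal value of 4.79 and 80 CpG dinucleotides (chr2:158610322-158611680). Npas1 had a peak of 955 bp with 5.35 and 3 such peaks in all, and Calb2, which encodes the calcium-binding protein calretinin, one of 328 bp with 5.98. A single peak of 677 bp with a signal value of 5.35 reached both Chat, the enzyme of acetylcholine synthesis, and Slc18a3, the acetylcholine vesicle transporter, whose gene lies within Chat. Sp9 had a signal value of 4.98, and its peak began 631 bp from a pool D peak.

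Sst, the gene of the peptide somatostatin, had the weakest peak of the 6, of 256 bp with a signal value of 3.33 and a −log10 q of 3.12. Sst was also the one interneuron gene absent from the replicated list. In contrast to the microglial start sites, those of the 6 interneuron genes held 37 to 89 CpG dinucleotides, all above the median of the 1412 peaks. The count was 5 to 7 under each alternative tried.

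**Figure D2:**
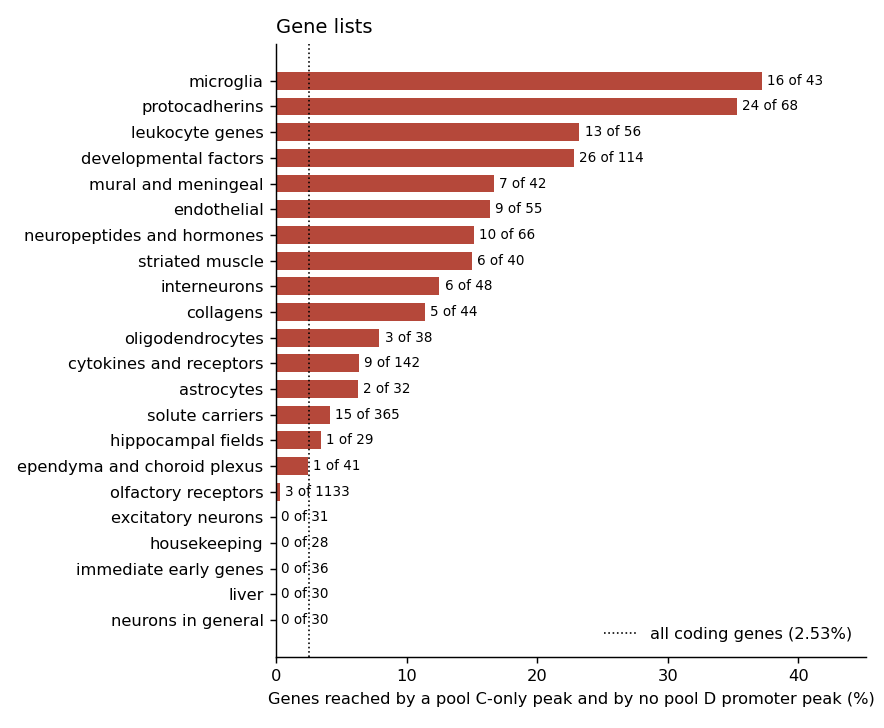
Bars give, for a selection of the 40 gene lists, the percentage reached by a pool C peak without a pool D counterpart and by no pool D promoter peak. The count is at each bar, and the dotted line is 2.53% of all protein-coding genes. Microglia (16 of 43) and protocadherins (24 of 68) stand highest, and excitatory neurons, pan-neuronal, immediate early, housekeeping and liver genes are at 0.

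Transcription factors of development, which in adult tissue outside their own lineage are often held silent at CpG-rich promoters by Polycomb proteins, were a further group. Of 114 such genes 41 had a promoter peak in pool D, and 26 (22.8%) were reached in pool C alone, against 2.53% of all genes. Isl2 had the highest signal value (8.65). Gata6 followed with 6.16, then Pax5, the factor of B cells and midbrain, with 6.15, and Foxa1 with 5.99. The start sites of the 26 held a median of 76.5 CpG dinucleotides (range 32 to 124), and 23 of the 26 held 50 or more, against 320 of the 1412 peaks (22.7%). Of the 26 genes, 21 were reached at the gene's 5′ end.

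The other 22 factors, listed by family after their values were seen, included homeodomain genes Nkx6-1, Gbx2, Isl1, Vax1, Vax2, Mnx1, Alx1, Irx1, Irx2, Irx6, Lhx1, Phox2a and Pax3, T-box genes T and Tbx2, forkhead genes Foxe1 and Foxs1, bHLH genes Neurog1 and Ptf1a, and Gata5 and Sox15. Their signal values ran from 2.83 (Foxs1) to 5.90 (Nkx6-1). The replicated list held such a peak at 16 of the 26 genes and the list called on both pools at 24. Of 39 Hox genes 1 was reached (2.56%, against 2.53% of all genes), Hoxc5 with a signal value of 3.33. No promoter peak in either pool was found at 33 of the 39, against 33.7% of all genes.

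Neuropeptide and hormone genes gave 10 of 66 (15.2%, against 2.53% of all genes). Oxt, the gene of oxytocin, had a signal value of 6.33, Gal, the gene of galanin, 6.26, Adcyap1, which encodes the peptide PACAP, 5.53, and Nmu, which encodes neuromedin U, 4.79. Striated muscle genes gave 6 of 40 (15.0%), with Myl2 (4.58), Pgam2 (4.40), Tnni3 (4.05), Mybpc2 (3.88), Casq1 (3.53) and Neb (3.33). In this list 28 of the 40 genes had no promoter peak in either pool, against 33.7% of all genes. Liver genes gave 0 of 30, vomeronasal receptors 0 of 326 and olfactory receptors 3 of 1133. Collagen chain genes gave 5 of 44 (11.4%), the strongest Col9a3 (6.01) and Col2a1 (5.35), both of cartilage, ahead of Col4a6 (3.88), Col6a1 (3.52) and Col9a1 (3.51).

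Solute carriers gave 15 of 365 (4.11%, against 2.53% of all genes). The strongest were Slc22a3, an organic cation transporter, with a signal value of 7.21, and Slc22a8, an organic anion transporter of choroid plexus and blood-brain barrier, with 6.63. Potassium channel genes gave 4 of 93 (4.30%), Kcna5 and Kcnh6 with 3.52 each, Kcne4 with 3.23 and Kcnk15 with 3.14. Zinc finger genes named Zfp gave 5 of 394 (1.27%). Pool D had marked 348 of the 394, and the 5 were 10.9% of the other 46, against 6.95% of all genes that pool D left unmarked.

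Clustered protocadherins are cell surface proteins of which each neuron expresses its own small set. Of 68 protocadherin genes 30 had a promoter peak in pool D, and 24 (35.3%) were reached in pool C alone, against 2.53% of all genes. All 24 lie within the gene clusters of chromosome 18. The other 14 had no promoter peak in either pool. The strongest were Pcdhb12 (signal value 6.08) and Pcdha12, Pcdhb1 and Pcdhb14 (5.35 each). All 24 summits lay downstream of the start site, as most of the 585 did. Chromosome 18 had the highest share of its pool C promoter peaks without a pool D peak, 54 of 463 (11.7%). These 54 include the protocadherin peaks. The share on the other chromosomes that had such peaks ranged from 6.44% (chromosome 8) to 9.84% (chromosome 10). Such a peak was in the replicated list at 7 of the 24 genes.

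**Figure D3:**
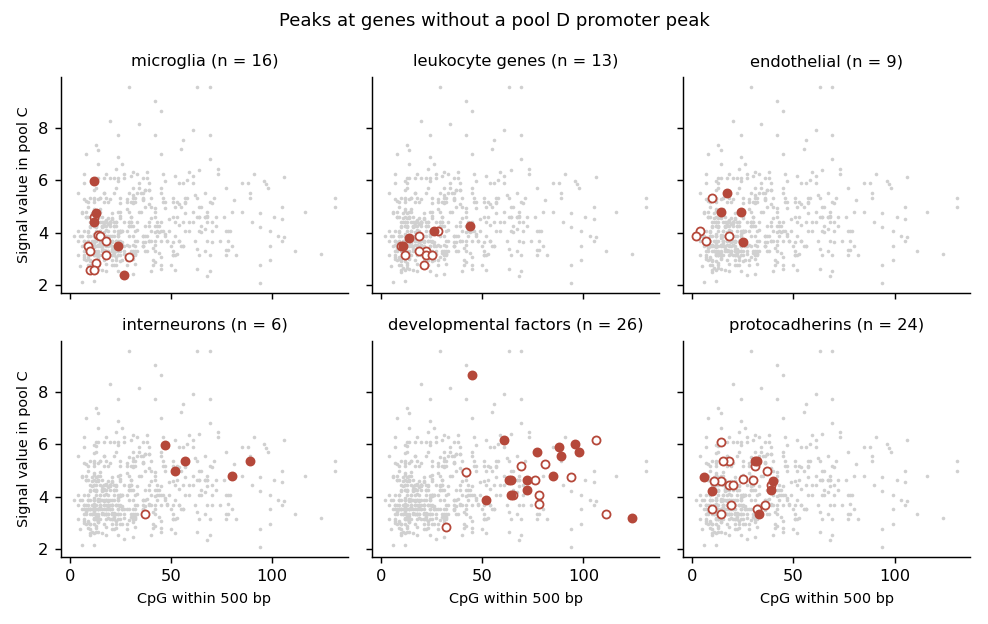
Each panel sets the pool C signal value against the CpG count within 500 bp of the start site for the 585 peaks at genes without a pool D promoter peak (grey) and for the genes of 1 list (red, filled where the replicated list holds the peak). Microglial and leukocyte genes sit at low CpG counts, up to 44, and developmental factors mostly at 50 or more.

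As a whole, the start sites of the 1412 peaks were poorer in CpG than those of shared promoter peaks. Within 500 bp they held a median of 23 CpG dinucleotides (quartiles 14 and 45.3) and 53.9% GC, against 65 (quartiles 45 and 88) and 60.4% at the 14853 shared promoter peaks. The observed to expected CpG ratio was 0.353 against 0.733. At the 5′ ends of genes, which do not depend on where the peak lies, the median was 24 for the 552 genes, 61 for genes with a pool D promoter peak, 8 for the 7370 genes marked in neither pool and 42 for all genes. The 585 and the 827 peaks were similar, with medians of 25 and 21.

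Set beside shared promoter peaks of like signal, this difference was smaller and was not in the same direction in every class. In the 6 classes of signal that hold the peaks, their median CpG counts were 20, 20, 22, 31, 38 and 43.5 from the weakest upward, and those of the shared promoter peaks 25, 21, 28.5, 32, 33 and 47. Some of these medians rest on few peaks. The shared promoter peaks numbered 19, 39, 98, 243, 734 and 1473 in these classes, and the sixth held 8 of the 1412. Shared promoter peaks in the 4 stronger classes, which hold none of the 1412, had medians from 61 to 73. Width was a different matter: in each of the 6 classes the shared peaks were wider, for instance a median of 912.5 bp against 576 bp in the fifth class.

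**Figure D4:**
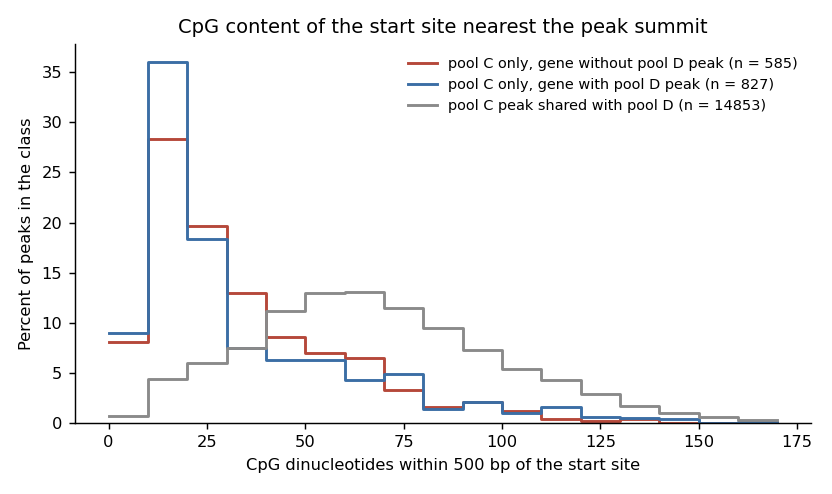
Lines give the percentage of peaks in each class by CpG count within 500 bp of the start site nearest the summit, in bins of 10, with counts above 170 placed in the last bin. Both classes of pool C peaks without a pool D counterpart have their highest bin at 10 to 20, and shared promoter peaks theirs at 60 to 70.

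The summits of the 585 peaks lay close behind start sites, like those of shared promoter peaks. Their median was 165 bp downstream, and 329 (56.2%) lay 0 to 500 bp downstream, against a median of 162 bp and 68.9% for shared promoter peaks. The peak itself covered a start site in 50.1% of the 585, in 25.4% of the 827 and in 89.7% of shared promoter peaks. Of the 585, 351 were nearest to the gene's 5′ end, and of the 827, 247. By annotation, 40.3% of the summits of the 585 lay in introns, 23.6% in coding exons, 22.4% in untranslated exons and 13.7% outside protein-coding genes, whereas 62.0% of those of the 827 lay in introns.

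**Figure D5:**
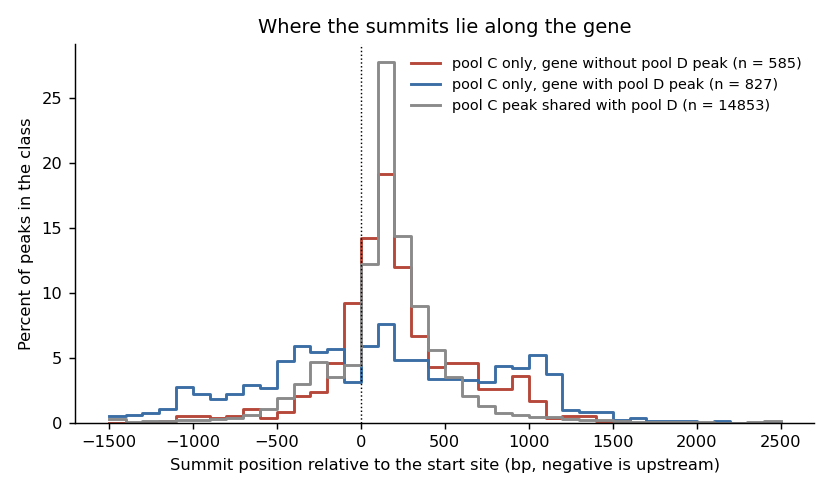
Lines give the percentage of peaks in each class by the position of the summit relative to the nearest start site, in bins of 100 bp, with values beyond the ends placed in the end bins. Peaks at genes without a pool D peak have their highest bin at 100 to 200 bp downstream, as shared promoter peaks do, and peaks at genes with a pool D peak are spread from 1000 bp upstream to 1200 bp downstream.

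The largest class among the 827 peaks at genes with the mark in pool D flanked a promoter peak that pool D also had. For 426 of the 462 within 1 kb of a pool D peak (92.2%), the window around their own start site also held that or another pool D peak. This share is high in part by construction, since all 462 lie within 1 kb of both a start site and a pool D peak. They lay at a median of 241 bp from the pool D peak and of 153 bp from the next pool C peak, 215 upstream and 247 downstream of the pool D peak along the gene. The list called on both pools joined 8 of them with sequence that met a pool D peak. Their median width was 381 bp, and 37.7% had 50 or more CpG dinucleotides, more than the other classes.

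Among the strongest of these flanking peaks were Ccl27a, a chemokine gene (signal value 10.1, 232 bp from pool D), Rbm12b1 (8.46, 116 bp), Hist1h2ag with its neighbouring histone genes (8.46, 118 bp), and Parp3, a poly(ADP-ribose) polymerase (8.32, 216 bp). Ppp4r4, a phosphatase subunit (8.26, 76 bp), Vcp, an ATPase of protein quality control (8.03, 261 bp), and Bcas1, a gene of early myelinating oligodendrocytes (7.36, 267 bp), followed. The histone genes, Ccl27a and Rbm12b1 have close copies nearby, so that reads may be misplaced among them. Of these 7 peaks the replicated list held all except that of Vcp.

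The 221 peaks over 5 kb from a pool D peak lay at start sites of genes marked elsewhere in pool D. These genes were long, with a median of 113477 bp against 17425 bp for the genes of the 585 peaks, and 14.5% of the peaks were nearest to the gene's 5′ end. Both values follow in part from the rule of this class. A gene reached must have another start site with a pool D peak, over 5 kb from the pool C peak. Their start sites held a median of 16 CpG dinucleotides, the lowest of the classes, and 3.17% held 50 or more.

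Crybg1, a relative of the eye lens crystallins, had the strongest peak of all 1412, with a signal value of 10.8 and a −log10 q of 36.2. It covered the gene's 5′-most start site (chr10:44148589-44149479) and lay 117896 bp from the nearest pool D peak. Kcnip4, which encodes a partner of A-type potassium channels, had a peak of 879 bp with 8.83 at a start site 925225 bp inside the gene. Elavl2, a neuronal RNA-binding protein gene, had 8.46 near its 5′-most start site, 18805 bp from pool D. Slc6a9, the glycine transporter of glia, had a peak of 1940 bp with 7.21 at a start site 14864 bp inside the gene, and Atp9a, a phospholipid flippase gene, one of 857 bp with 6.81 at a start site 8070 bp inside. The replicated list held all 5. Atp9a is named here after its values were seen.

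Among the widest peaks at genes with the mark in pool D were those at Dlc1 (2205 bp), which encodes a GTPase-activating protein, Mobp (2118 bp), Slc6a9 (1940 bp) and Pdgfra (1896 bp), the growth factor receptor of oligodendrocyte precursors. The replicated list held these 4, with the Dlc1 peak at 1065 bp.

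Several genes had more than one such peak. Of the genes reached, 151 had 2 or more, and the most at any gene was 4, at Acvrl1, Egfl7, Hmga2, Tbx1 and Tfap2a, genes that were singled out after their values were seen. Acvrl1 and Egfl7 are endothelial genes, and Tbx1 and Tfap2a developmental factors, all 4 with a pool D promoter peak elsewhere at the gene. Hmga2, a chromatin protein of embryonic growth, had no pool D promoter peak, and its 4 peaks had widths of 1119, 257, 490 and 368 bp and signal values of 4.61, 3.69, 2.36 and 4.79. They lay side by side around one CpG-rich start site (68 CpG dinucleotides), from a summit at −750 bp to one at 759 bp.

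The distances at the border of the choice were as follows, with adjoining peaks counted as at distance 1. Among the peaks nearest to pool D without sharing a base were those at Phlda3 (11 bp, signal value 2.52) and Kctd9 (26 bp, 2.96). The pool C promoter peaks just outside, which shared the fewest bases with a pool D peak, were at Grap (13 bases, 3.14), Smarcd1 (40 bases, 2.96) and Slc17a7 (46 bases, 2.64). At the edge of the promoter window, peaks at Dffb, Abhd17a and Zscan2 lay exactly 1000 bp from a start site and were counted, and those at Paqr8, D10Wsu102e and Rasgrf2 lay 1001, 1003 and 1009 bp away and were not. The weakest peaks were at Evi5 (1.92), Cyth3 (1.94) and Mafk (1.96), with −log10 q of 1.02, 0.853 and 0.674.

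Short sequence motifs were counted on both strands from 250 bases before to 50 bases after the start site nearest the summit. GAGGAAGT, letters bound by the myeloid and lymphoid factor PU.1, stood in 29 of the 585 windows (4.96%), in 3.14% of the 827, in 2.21% of shared promoter peaks and in 3.20% of all 5′ ends of protein-coding genes. CCGGAAGT, letters of ubiquitous ETS factors, stood in 1.20% of the 585, 6.44% of shared and 4.85% of all. GGGCGG, letters of Sp factors, stood in 39.1%, 67.4% and 43.8%, TGACGTCA, letters of CREB factors, in 0.684%, 3.04% and 2.46%, and GCGCATGC, letters of NRF1, in 1.03%, 4.42% and 3.73%. TATAAA stood in 10.8% of the 585, 5.75% of shared promoter peaks and 12.6% of all 5′ ends, and CCAAT in 30.9%, 34.7% and 39.0%. GAGGAAGT and CCGGAAGT overlap in the letters GGAAGT. A match is a description of the letters and not a bound site, and the 585 windows include several start sites more than once.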

How the data were processed

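The submitters profiled H3K4me3 by ChIP-seq and deposited peak lists on build mm10, per the labels: 1 for pool D, 1 for pool C, 1 for both pools together and 1 of replicated peaks. Per the per-library notes in the deposited files, technical replicates of a pool share 1 alignment. Which peak caller was run is not given in the sources used here. The authors deposited for each peak a signal value (a fold enrichment on their caller's scale), a −log10 q value, a summit offset and a score that was not used. Coordinates were counted from 1. Promoters were windows of 1 kb around the 54361 start sites of protein-coding transcripts of 21853 genes in GENCODE M21. Peaks were shared if they had 1 base in common. Sequences came from the RefSeq GRCm38 assembly, and every peak ended within its chromosome lengths. Interval code (Python 3.11.15, pandas 2.3.3, numpy 2.4.6) was tested on simulated intervals. Sequencing depth is unknown, so no counting interval is given. No test was made, since each pool has 1 list and the lists chose the peaks.

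The peaks and the 40 gene lists were chosen with earlier results of these data known. Named genes are, of the peaks at genes with and without a pool D promoter peak, the 10 of highest signal value and the 5 widest, the peaks at the border of the choice, the 3 weakest, and up to 4 genes of each list by signal value (all where there were 6 or fewer). Other genes of a list that are named, such as the remaining endothelial and mural genes, Hvcn1 and Ptprc, were chosen after their values were seen. A peak carries the name of the gene whose start site was closest to its summit, and clone-named genes were counted and not named. Alternatives were other rules for sharing, windows and start sites, a −log10 q of at least 5, and presence in the other lists. Results for some genes are not reported here.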

Additional observations from a re-analysis of the deposited data

How the results depend on the processing

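The number of peaks depended on the rules that chose them. It was 2525 with reciprocal overlap of 50% required for sharing, 825 with a −log10 q of at least 5, 2696 with a 2.5 kb window, 812 at the gene's 5′ end alone, 482 among replicated peaks and 916 among peaks called on both pools, against 1412. The 552 genes without a pool D promoter peak held better: they were 367 with a −log10 q of at least 5 and 222 in the replicated list, and 404 to 605 under the other alternatives, where between 73.1% and all of the genes were kept. In the order reciprocal overlap, pool D within 1 kb counted as shared, −log10 q of at least 5, 500 bp window, 2.5 kb window, 5′ end alone, replicated peaks and peaks called on both pools, the share of peaks at such genes was 23.5%, 61.3%, 44.8%, 50%, 24.9%, 71.2%, 46.3% and 44.98%, against 41.4%. The share within 1 kb of pool D (33.3%) was 62.7% with reciprocal overlap, 25.05% and 49.1% with the 500 bp and 2.5 kb windows, 29.4% at 5′ ends and 30.3% in the replicated list. Median GC content was 56.1%, 52.8%, 54.5%, 55.4%, 55.0% and 54.6%, and median CpG count 35, 21, 26, 32, 31 and 27, for reciprocal overlap, sharing within 1 kb, the stricter q, the 2.5 kb window, 5′ ends and the replicated list, with a CpG count of 25 in the list on both pools. The median summit was 125 bp downstream with the stricter q, 107.5 bp with the 500 bp window and 557 bp with the 2.5 kb window. Of 183 list genes reached, 116 remained with the stricter q and 67 in the replicated list. With the stricter q, presence in the replicated list and presence in the list on both pools, microglial genes fell from 16 to 6, 5 and 8 and leukocyte genes from 13 to 5, 4 and 7. In the replicated list endothelial genes fell from 9 to 5, developmental factors from 26 to 16 and protocadherins from 24 to 7. No value changed sign. Leaving out a replicate was not possible, since technical replicates share 1 list. No paired analysis was possible because no result comes from a test.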
